A study of Rattus norvegicus with 39 samples.

Results

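The genes of the proteasome were followed in rat liver after injury with a bile duct toxicant. A gene was taken when a probe set of the array carried 1 symbol and that symbol began with Psma to Psmg followed by a digit. Where a gene had several such probe sets, the brightest on average over 39 arrays stood for it. This gave 43 of the 10411 genes with a probe set of 1 symbol. They comprised 13 core genes, 14 regulatory genes, 5 immune genes, 7 assembly genes, the activator gene Psme4 and the inhibitor gene Psmf1. The other 2, Psmc3ip and Psme3ip1, match by symbol and encode no subunit. Psmb6 and Psme3, whose probe sets carry several symbols, were not analysed here, nor were Psma8, Psmb11, Psmc6, Psmd12 and Psmd14.

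The proteasome is the barrel-shaped protease that degrades proteins tagged with ubiquitin. Its core is built from rings of alpha (Psma) and beta (Psmb) subunits, with the catalytic sites inside the beta rings, and a regulatory cap of ATPase (Psmc) and non-ATPase (Psmd) subunits recognises, unfolds and feeds in the substrate. Under interferon, cells make the immune catalytic subunits Psmb9, Psmb10 and Psmb8, which take the places of Psmb6, Psmb7 and Psmb5 in new particles and favour peptides for class I antigen presentation, together with the activator subunits Psme1 and Psme2.

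The animals were Sprague Dawley rats, 8 weeks old, given ANIT once (alpha-naphthylisothiocyanate, which injures the bile duct epithelium of rodents). The dose was 50 mg per kg, dissolved in corn oil, and vehicle rats received the oil alone (10 ml per kg). At 2 or 6 h, bile duct or hepatocytes were cut from liver by laser capture microdissection, and the RNA was amplified before hybridisation to an Affymetrix array. Each of the 8 groups held 5 arrays labelled as biological replicates, except vehicle bile duct at 6 h with 4. All levels below are log2 values, so that a difference of 1 is a doubling, and levels are compared only within a probe set.

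In vehicle rats at 2 h the captures carried the markers of their labels: 13 of 13 cholangiocyte markers passed as higher in bile duct, and 17 of 17 hepatocyte markers passed as lower. The bile duct captures also held hepatocyte markers, to differing degrees. In vehicle bile duct at 6 h the mean level of the 17 hepatocyte markers was 7.53, 4.85, 8.68 and 4.52 on replicates 1 to 4. With ANIT at 6 h it ran from 3.68 to 7.60, against 10.38 to 10.68 in hepatocytes of 6 h. Bile duct arrays were less alike than hepatocyte arrays. Correlations across probe sets within a group ran from 0.979 to 0.993 in hepatocytes, from 0.834 to 0.893 in vehicle bile duct at 6 h and from 0.866 to 0.959 in ANIT bile duct at 2 h. The spread of an array, taken as the SD of its levels over all probe sets, was 1.68 to 1.88 in vehicle bile duct at 6 h, below the 1.95 to 2.06 of ANIT bile duct at 6 h and the 1.99 to 2.18 of vehicle bile duct at 2 h. In ANIT bile duct at 2 h it ran from 1.76 to 2.11, and in hepatocytes from 2.22 to 2.37. In such captures, fewer cells of a type and less RNA per cell cannot be told apart.

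The promoters of 4 genes are shown, those with the smallest p in the bile duct comparisons of ANIT with vehicle among the genes that held a searched motif. Each is 300 bases, of which the last 50 follow the start of the gene, written 5′ to 3′ on the strand of the gene, from RefSeq on build GRCr8. Capitals mark matches to the interferon regulatory factor pair (GAAA, any 2 bases, GAAA), GAANNTTC (the core of a heat shock element) or TGACNNNGC (the core of an antioxidant response element), searched on both strands.
Psmd7, chr19:52411267-52411566, minus strand: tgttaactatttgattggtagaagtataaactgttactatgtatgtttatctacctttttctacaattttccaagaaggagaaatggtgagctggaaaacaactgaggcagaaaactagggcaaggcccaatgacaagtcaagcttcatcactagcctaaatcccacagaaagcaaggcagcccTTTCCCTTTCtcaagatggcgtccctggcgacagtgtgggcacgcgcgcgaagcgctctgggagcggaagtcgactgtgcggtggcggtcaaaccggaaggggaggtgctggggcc
Psmb9, chr20:4668750-4669049, plus strand: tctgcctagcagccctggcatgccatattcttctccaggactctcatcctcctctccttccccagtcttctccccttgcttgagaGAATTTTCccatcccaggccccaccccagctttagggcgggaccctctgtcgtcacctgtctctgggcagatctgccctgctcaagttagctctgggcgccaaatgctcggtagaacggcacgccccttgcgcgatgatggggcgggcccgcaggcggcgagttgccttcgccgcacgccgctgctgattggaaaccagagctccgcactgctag
Psmb8, chr20:4656982-4657281, minus strand: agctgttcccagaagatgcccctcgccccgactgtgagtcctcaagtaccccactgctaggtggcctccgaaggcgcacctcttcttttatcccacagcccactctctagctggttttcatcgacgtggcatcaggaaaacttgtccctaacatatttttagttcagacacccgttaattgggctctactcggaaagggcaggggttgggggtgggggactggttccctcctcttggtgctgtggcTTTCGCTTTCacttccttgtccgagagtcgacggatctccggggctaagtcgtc
Psmd1, chr9:94157721-94158020, plus strand: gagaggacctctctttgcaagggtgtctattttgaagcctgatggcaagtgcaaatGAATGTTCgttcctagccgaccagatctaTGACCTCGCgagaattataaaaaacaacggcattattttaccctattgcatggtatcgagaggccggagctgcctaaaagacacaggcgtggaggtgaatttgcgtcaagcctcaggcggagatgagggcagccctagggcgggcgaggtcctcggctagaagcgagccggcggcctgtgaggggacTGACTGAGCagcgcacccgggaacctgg

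The capitals mark an interferon factor pair beginning at base -66 from the start of Psmd7 and at base -4 of Psmb8, a heat shock core at base -165 of Psmb9, and antioxidant cores at bases -165 and 22 with a heat shock core at base -194 of Psmd1. Positions are distances from the first base of the gene to the first marked base, negative before it. Promoters were matched for 41 of the 43 genes. The interferon factor pair was present in 7 of the 41 (17.1%), against 3.8% of 27457 rat promoters of the same length. These were the promoters of the immune genes Psmb8, Psmb10 and Psme2 and of Psma4, Psmb3, Psmd7 and Psmg4. The antioxidant core was present in 7 (17.1%, against 12.2% of all) and the heat shock core in 3 (7.3%, against 8.3% of all). A match describes the letters in this window and is not a measured binding site.

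The main question of the design is what ANIT did in each cell type and at each time. In bile duct at 2 h, the immune genes Psmb8 and Psmb9 stood lowest relative to vehicle, but no proteasome gene passed the threshold of an adjusted p of 0.05. Over the array, 1.12% of 15866 probe sets passed, 0.258% higher and 0.863% lower. Psmb9, the inducible counterpart of Psmb6, stood at 6.16, 6.07, 5.93, 5.20 and 5.86 on the ANIT arrays and at 6.70, 6.48, 7.88, 7.38 and 6.85 on the vehicle arrays. Every ANIT array lay below every vehicle array. The log2 difference was -1.21 ± 0.29 (SE), or 2.32-fold lower, with a limma adjusted p of 0.0566.

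Psmb8, the inducible counterpart of Psmb5, stood at 6.26, 6.07, 5.86, 6.05 and 6.05 with ANIT and at 6.89, 6.95, 7.71, 6.82 and 6.69 with vehicle. The groups again did not overlap. The difference was -0.95 ± 0.24 (limma adjusted p = 0.0627). Psmg3, a chaperone of core assembly, was the only other gene of the 43 whose groups did not overlap, with means of 4.86 and 5.46 and a difference of -0.60 ± 0.22 (limma adjusted p = 0.198). Groups that did not overlap were found for 4.34% of all probe sets.

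The other immune genes had differences of -0.36 ± 0.24 for Psmb10, -0.77 ± 0.44 for Psme1 and -0.42 ± 0.23 for Psme2, none of which passed. All 13 core genes also had values below 0, with a median of -0.52 and a range from -0.77 to -0.18, none past the threshold. The lower core levels were uneven between the ANIT arrays. Centred on each gene's mean over all arrays, the core median was -1.40 and -0.67 on ANIT replicates 2 and 4. It was 0.16, 0.17 and -0.10 on ANIT replicates 1, 3 and 5, and ran from -0.05 to 0.34 on the vehicle arrays. Psmb5 was at -0.74 ± 0.36 and Psmb7 at -0.52 ± 0.30. Regulatory genes were nearer to 0, with a median of -0.11 and 4 of 14 above it. The median over all probe sets was 0.03.

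ANIT replicates 2 and 4 had the lowest array spread of that group, 1.76 and 1.88. Without them the value of Psme1, at -0.77 in the full comparison, was 0.07, while Psmb8 stood at -0.96 (limma adjusted p = 0.107) and Psmb9 at -1.07 (limma adjusted p = 0.127). With array spread as a covariate Psmb9 stood at -0.98 (limma adjusted p = 0.179), and with the mean of the hepatocyte markers as a covariate at -1.33 (limma adjusted p = 0.0427). That mean of 17 markers was 6.07 ± 0.80 with ANIT and 4.89 ± 0.91 with vehicle, against group means of 10.56 to 10.70 in hepatocytes. The mean of 9 macrophage markers was 4.97 ± 0.23 and 5.51 ± 0.50. The part of macrophages in the lower values of Psmb8 and Psmb9 was not tested.

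**Figure D1:**
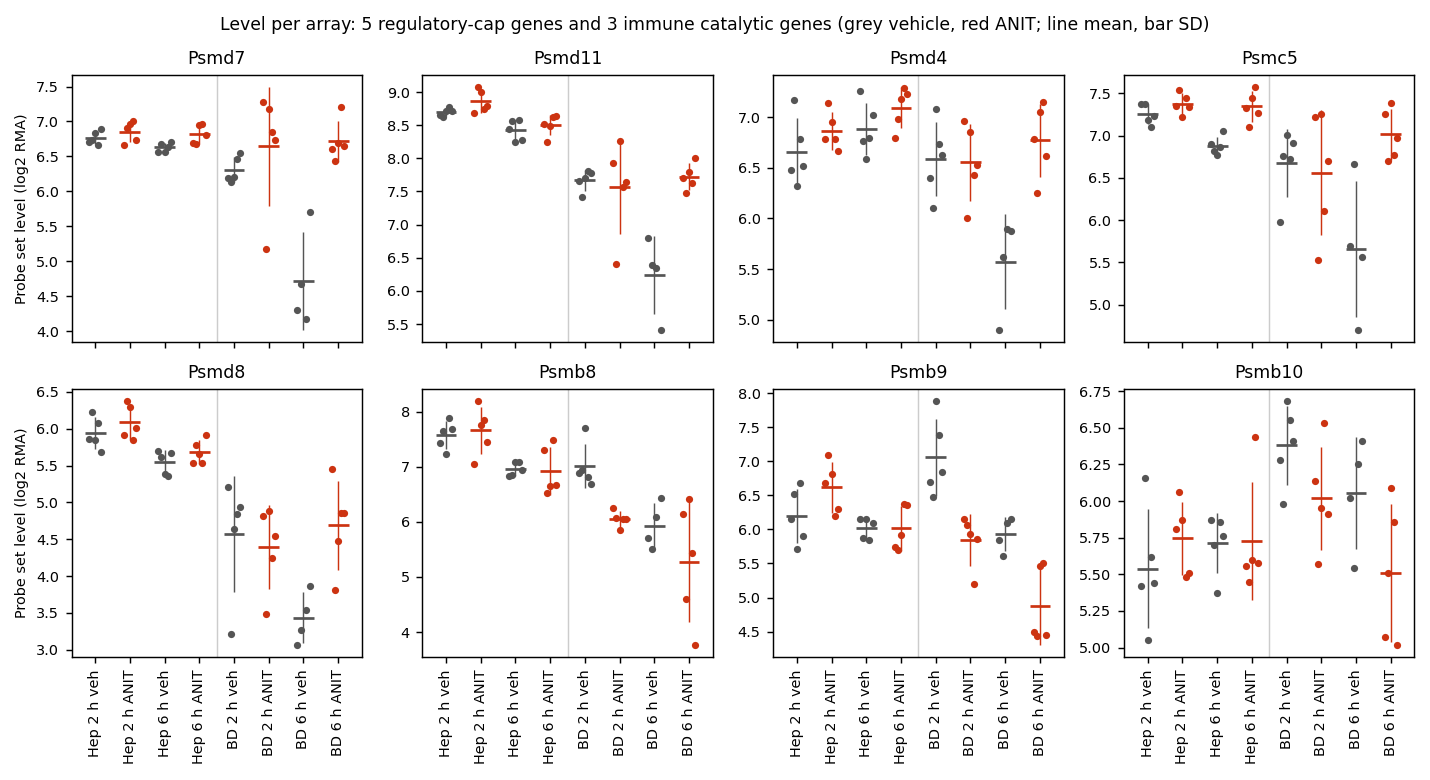
Log2 level of 8 proteasome genes on every array, by group (Hep hepatocytes, BD bile duct, veh vehicle), with vehicle in grey and ANIT in red, a line for the mean and a bar for the SD. In bile duct at 2 h every ANIT array lies below every vehicle array for Psmb8 and Psmb9. At 6 h the vehicle arrays of Psmd7 (4.17 to 5.71) lie below those of the other 7 groups except 1 ANIT array of 2 h at 5.17.

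At 6 h in bile duct, 5 genes of the regulatory cap passed as higher with ANIT than with vehicle, while no immune gene did. Of the 43 genes, 5 were higher and 0 lower, and all 5 encode cap subunits. Over the array 6.51% of probe sets passed, 5.17% higher and 1.34% lower. Among the 14 regulatory genes 5 were higher, and the median was 0.98 with a range from 0.52 to 2.00. No core gene passed, although all 13 lay above 0 with a median of 0.59, and no immune gene passed, although all 5 lay below 0 with a median of -0.55. The median over all probe sets was -0.05.

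Psmd7, a subunit of the lid of the cap, stood at 6.61, 6.43, 6.69, 7.21 and 6.65 on the ANIT arrays and at 4.30, 4.68, 4.17 and 5.71 on the vehicle arrays. The lowest ANIT array lay above the highest vehicle array. The difference was 2.00 ± 0.34, or 4.01-fold (limma adjusted p = 0.00521). Psmd11, a scaffold of the lid, stood at 7.71, 7.47, 7.80, 7.62 and 8.01 with ANIT and at 6.80, 6.39, 6.34 and 5.41 with vehicle, again without overlap. It was higher by 1.49 ± 0.31, or 2.80-fold (limma adjusted p = 0.0126). A second probe set of Psmd11 gave 0.66 ± 0.29 and did not pass (limma adjusted p = 0.189).

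Psmd4, a receptor for ubiquitin chains, stood at 6.78, 6.25, 7.05, 7.15 and 6.62 with ANIT and at 4.90, 5.62, 5.90 and 5.88 with vehicle. It was higher by 1.20 ± 0.31 without overlap (limma adjusted p = 0.0342). Psmc5, an ATPase of the base, stood at 7.26, 6.70, 7.39, 6.77 and 6.97 with ANIT and at 5.70, 6.66, 4.70 and 5.57 with vehicle. It was higher by 1.36 ± 0.36 (limma adjusted p = 0.0373), with the highest vehicle array just below the lowest ANIT array. Psmd8, a lid subunit, stood at 5.45, 3.81, 4.48, 4.86 and 4.85 with ANIT and at 3.07, 3.27, 3.54 and 3.87 with vehicle. It was higher by 1.25 ± 0.34 (limma adjusted p = 0.0408), and its groups overlapped by 1 array on each side. Leaving out single arrays, Psmd7 and Psmd11 passed in 9 of 9 fits, Psmd4 in 3, Psmd8 in 2 and Psmc5 in 1. The number of genes called was 2 without ANIT replicate 1, 3, 4 or 5, 3 without vehicle replicate 1, 2 or 3, and 8 without vehicle replicate 4. Shares of all probe sets called in these fits are not given, so the counts describe stability only.

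The other cap genes did not pass. The ATPase genes Psmc1, Psmc2 and Psmc4 had values of 1.01 ± 0.32, 0.94 ± 0.29 and 0.82 ± 0.27 without overlap between groups. Psmd1, a scaffold of the base whose promoter is shown above, was at 0.79 ± 0.29 (limma adjusted p = 0.117). In the core, the alpha ring had a median of 0.79 and the beta ring one of 0.48. Psma1 came closest to the threshold, at 1.03 ± 0.31 (limma adjusted p = 0.0614). Groups did not overlap for 13 of the 43 genes, against 11.3% of all probe sets.

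The immune genes and the constitutive subunits lay on opposite sides of 0. Psmb9 stood at 4.50, 4.43, 5.46, 5.51 and 4.45 with ANIT and at 5.85, 5.61, 6.09 and 6.16 with vehicle. The arrays did not overlap, and the difference of -1.06 ± 0.33 did not pass (limma adjusted p = 0.0658). Psmb8 was spread from 3.77 to 6.41 with ANIT, around a mean of 5.27 against 5.94 with vehicle, a difference of -0.66 ± 0.47 (limma adjusted p = 0.424). Psmb10, Psme1 and Psme2 had values of -0.55 ± 0.32, -0.52 ± 0.32 and -0.46 ± 0.32. Psmb5 and Psmb7 had values of 0.45 ± 0.30 and 0.36 ± 0.30. The assembly genes had a median of 0.34, and none passed.

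**Figure D2:**
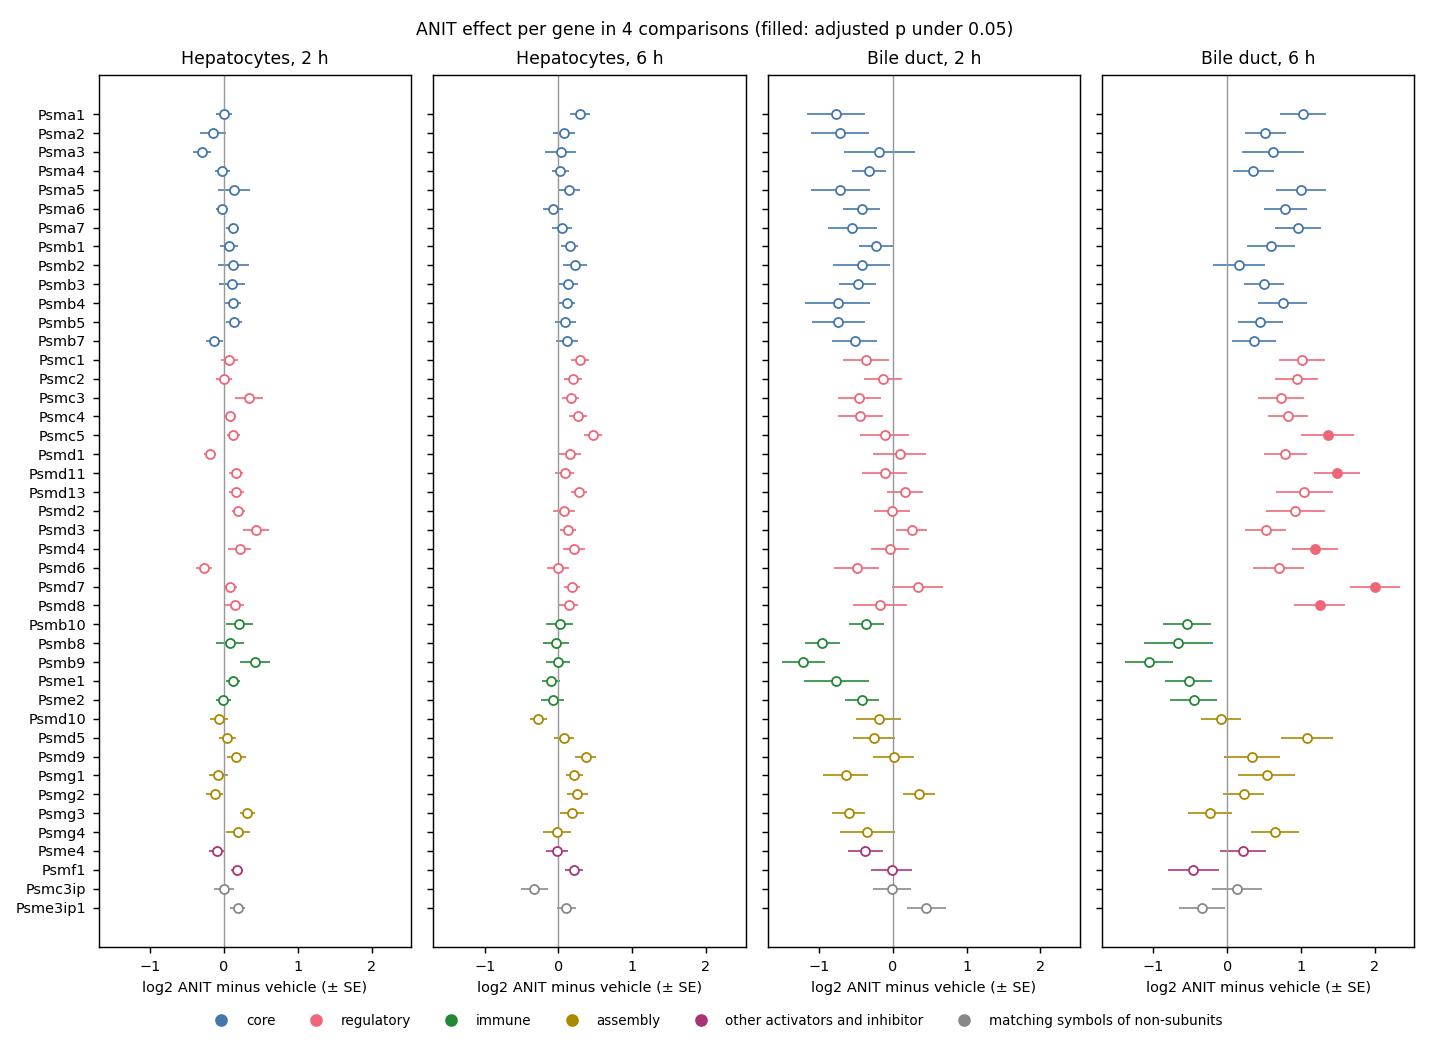
Log2 difference of ANIT from vehicle for each of the 43 genes in bile duct and hepatocytes at 2 and 6 h, with bars for the SE and filled points for an adjusted p under 0.05. The 5 filled points are Psmd7, Psmd11, Psmd4, Psmc5 and Psmd8 in bile duct at 6 h, and the immune genes lie below 0 in bile duct at both times.

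The calls at 6 h depended on which vehicle arrays served as controls. When the ANIT arrays of 6 h were set against the vehicle bile duct arrays of 2 h, 0 of the 43 genes were higher and 5 were lower, with 14.2% of probe sets called, 5.94% higher and 8.23% lower. In that comparison treatment and time cannot be told apart. None of the 14 regulatory genes passed, with a median of 0.06. Psmd7 had a value of 0.41 (limma adjusted p = 0.209) and Psmd11 one of 0.05 (limma adjusted p = 0.896).

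The immune genes were lower against these controls. Psmb9 was lower by a log2 difference of -2.19 ± 0.32, or 4.56-fold (limma adjusted p = 0.000706), and Psmb8 by -1.74 ± 0.43, or 3.34-fold (limma adjusted p = 0.0156). Psmb10 (-0.87 ± 0.25, limma adjusted p = 0.032) and Psme1 (-0.84 ± 0.25, limma adjusted p = 0.0365) were lower too, so that 4 of 5 immune genes passed. Psme2, at -0.39 ± 0.24, did not, and Psmg3 was the fifth gene that was lower. The core had a median of -0.18 with 0 of 13 called.

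**Figure D3:**
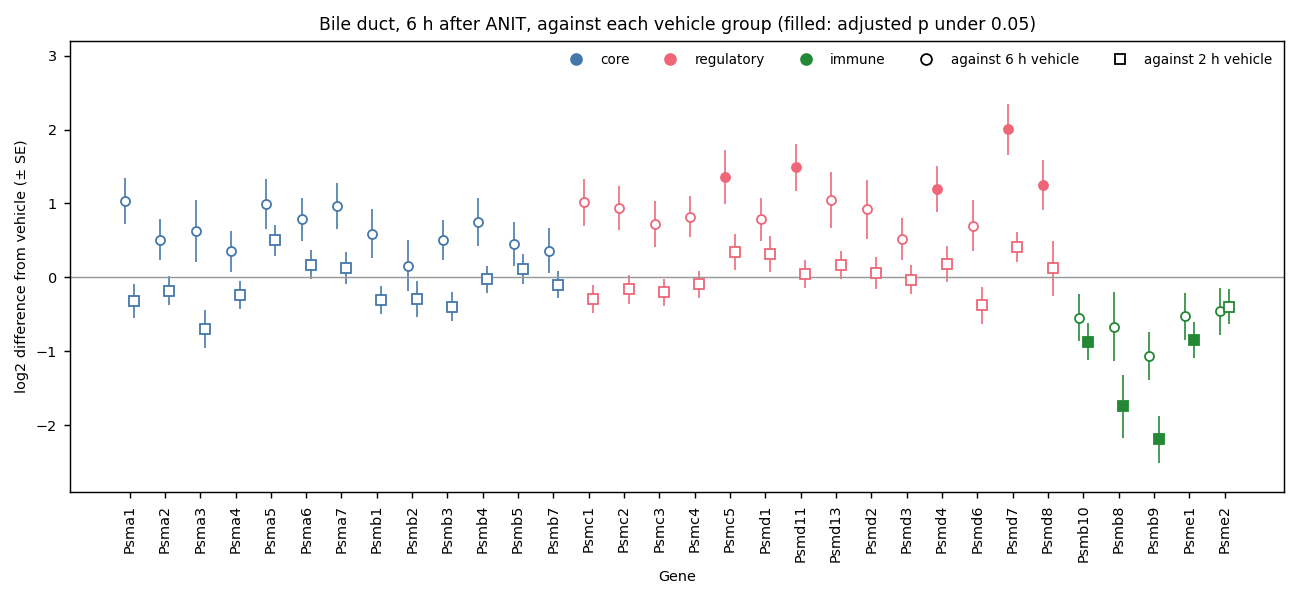
Log2 difference of bile duct 6 h after ANIT from vehicle bile duct of 6 h (circles) and of 2 h (squares) for the 32 core, regulatory and immune genes, with bars for the SE. Regulatory genes lie near 0 against the 2 h vehicle arrays (median 0.06) and above 0 against those of 6 h (median 0.98). Psmb9 lies below 0 against both, at -2.19 and -1.06.

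Array spread moved with the same groups and did not overlap at 6 h, at 1.95 to 2.06 with ANIT and 1.68 to 1.88 with vehicle. A fit with spread as a covariate therefore cannot fully tell spread and treatment apart. When the 4 bile duct groups were fitted together with spread as a covariate, none of the 5 cap genes passed. Psmd7 was then at 1.23 (limma adjusted p = 0.118) and Psmd11 at 0.97 (limma adjusted p = 0.198), while Psme1 was called lower at -1.86 (limma adjusted p = 0.00737). With the arrays of the comparison quantile normalized again, Psmd7 (limma adjusted p = 0.0135) and Psmd8 (limma adjusted p = 0.0467) were higher and Psmb9 was lower at -1.30 (limma adjusted p = 0.0292), while Psmd11, Psmd4 and Psmc5 did not pass. The mean of the hepatocyte markers was 5.18 ± 1.56 with ANIT and 6.40 ± 2.03 with vehicle. With that mean as a covariate Psmd7 was at 1.91 (limma adjusted p = 0.00395) and Psmd11 at 1.57 (limma adjusted p = 0.00566). The mean of 13 cholangiocyte markers was 8.15 ± 0.11 with ANIT and 7.57 ± 0.46 with vehicle, and its part in the calls was not tested.

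**Figure D4:**
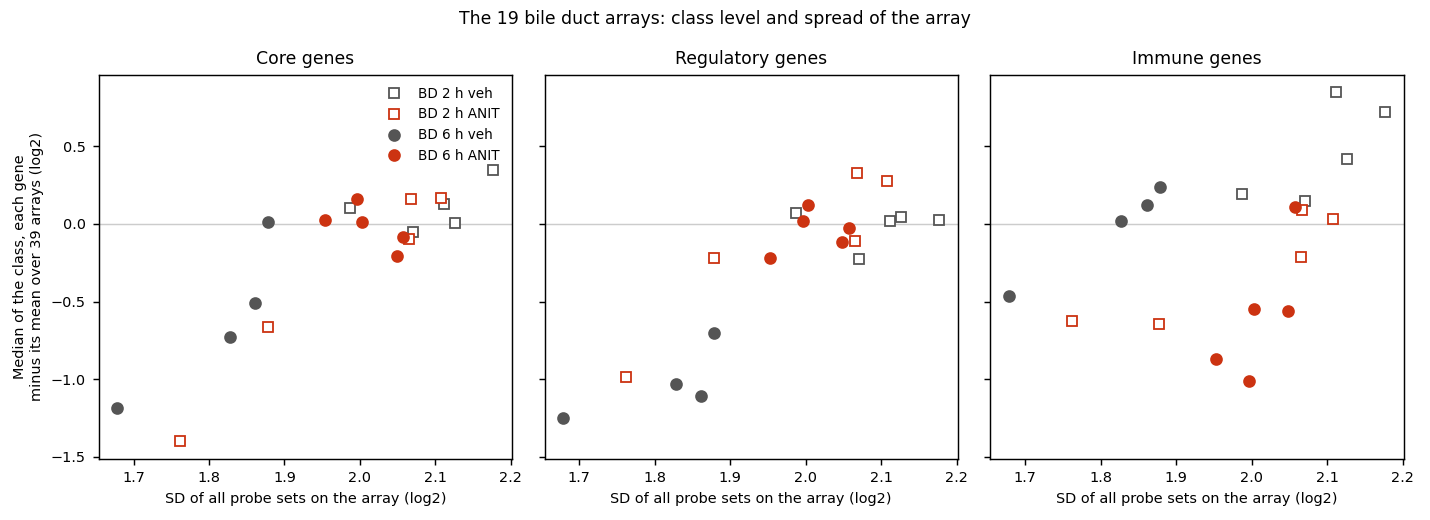
Each bile duct array by the SD of its levels over all probe sets (horizontal axis) and the median of its centred log2 levels over core, regulatory or immune genes (vertical axis). The vehicle arrays of 6 h lie at an SD of 1.68 to 1.88, with regulatory medians from -1.25 to -0.70.

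The table of ratios and p-values that the authors deposited treats the same arrays by another route. After adjustment over all probe sets, the authors' deposited table gave 4 calls among the 43 genes for bile duct at 6 h, where it called 3.9% of all probe sets. Psmd7 (1.26 after conversion to log2, adjusted p = 0.000262), Psmd1 (1.54, adjusted p = 0.00741) and Psmd8 (1.42, adjusted p = 0.00779) were higher in the authors' deposited table, and Psme2 (-0.57, adjusted p = 0.0384) was lower. Psmd11 (1.04, adjusted p = 0.142) and Psmd4 (1.16, adjusted p = 0.0821) did not pass in the authors' deposited table, nor did Psmc5, at 0.09. Psmb9 at 6 h was at -0.63 in the authors' deposited table (adjusted p = 0.889). At 2 h the authors' deposited table called Psmb8 lower (-0.90, adjusted p = 0.026), with 1.58% of all probe sets called. In hepatocytes the authors' deposited table called none of the 43 genes, with 0.0126% of all probe sets called at 2 h and 0.0189% at 6 h.

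In hepatocytes the ANIT comparisons called no proteasome gene and no other probe set at either time. At 2 h, with 0% of probe sets called by limma, 6 of the 43 genes and 1195 of all probe sets had an unadjusted p under 0.05, and 0 of the 43 had groups that did not overlap, against 1.08% of probe sets. The gene with the smallest p was Psmg3 at 0.32 ± 0.10 (limma adjusted p = 0.542). Psmb9 stood at 6.68, 7.10, 6.81, 6.20 and 6.30 with ANIT and at 6.16, 6.52, 5.72, 6.68 and 5.91 with vehicle, and the groups overlapped. At 6 h, again with 0% called by limma, 7 of the 43 and 1285 of all probe sets had an unadjusted p under 0.05. Psmc5 stood at 7.33, 7.10, 7.45, 7.58 and 7.27 with ANIT and at 6.90, 6.82, 6.77, 6.87 and 7.05 with vehicle. Its groups did not overlap, as for 1.39% of probe sets, and the difference of 0.46 ± 0.12 did not pass (limma adjusted p = 0.347). The 5 immune genes lay between -0.10 and 0.01. In simulated data, 90% of 2-fold changes were recovered in hepatocytes at 2 h and 85% at 6 h, against 20% in bile duct at 2 h and 11% at 6 h. Such rates depend on how many probe sets were made to change, so they do not give the rate for a gene that changes alone.

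The difference between the cell types was tested directly. The labels do not state whether both captures came from 1 rat, and the arrays were fitted as unpaired. At 2 h no gene was called with a block by replicate number or by array number. At 2 h the effect of ANIT on Psmb9 was lower in bile duct than in hepatocytes by a log2 difference of -1.63 ± 0.37 (limma adjusted p = 0.0313). It was the 1 gene of the 43 called, with 1.02% of probe sets called, 0.24% higher and 0.782% lower. Psmb8 was at -1.04 ± 0.29 (limma adjusted p = 0.0889). The call on Psmb9 held in 11 of 20 fits that left out an array. It was lost without vehicle hepatocyte replicate 1, 3 or 5, ANIT hepatocyte replicate 1, 2 or 3, vehicle bile duct replicate 3 or 4, or ANIT bile duct replicate 4, with values from -1.78 to -1.43 over all 20.

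At 6 h the effect on Psmd7 was higher in bile duct than in hepatocytes by 1.82 ± 0.34 (limma adjusted p = 0.00249) and that on Psmd11 by 1.41 ± 0.31 (limma adjusted p = 0.00799). The second probe set of Psmd11 gave 0.58 ± 0.30 and did not pass (limma adjusted p = 0.246). In hepatocytes Psmd7 lay between 6.56 and 7.00 on all arrays. These were the 2 genes of the 43 called, with 7.05% of probe sets called, 5.21% higher and 1.84% lower. Their number was 11 without vehicle bile duct replicate 4 and 4 without vehicle bile duct replicate 1 or 2 or ANIT bile duct replicate 2. These counts describe stability only, as the shares of all probe sets called in such fits are not given.

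Between the times in bile duct, the effect of ANIT on Psmd11 was higher at 6 h than at 2 h by 1.60 ± 0.44 (limma adjusted p = 0.0437), the 1 gene of the 43 called with 3.57% of probe sets called, 2.42% higher and 1.15% lower. The second probe set of Psmd11 gave 0.73 ± 0.41 and did not pass (limma adjusted p = 0.272). The values of Psma1 (1.80 ± 0.53, limma adjusted p = 0.0554) and Psmd7 (1.67 ± 0.50, limma adjusted p = 0.0579) did not pass. The call on Psmd11 was kept in 4 of 19 fits that left out an array, and no gene was called without any 1 of the vehicle arrays of 2 h, ANIT replicate 2, 4 or 5 of 2 h, vehicle replicate 2 or 3 of 6 h, or ANIT replicate 1, 3, 4 or 5 of 6 h. Without ANIT replicate 1 of 2 h, 9 genes were called, without its replicate 3, 7, without vehicle replicate 4 of 6 h, 8, and without vehicle replicate 1 of 6 h, 3. Such counts describe stability only, since the shares of all probe sets called are not given for these fits. The immune genes had differences between the times from -0.18 to 0.29. In hepatocytes no gene was called between the times, with 0% of probe sets called by limma.

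Vehicle rats show how these genes stood without ANIT. In vehicle bile duct, 14 of the 43 genes were lower at 6 h than at 2 h and 0 were higher, with 14% of probe sets called, 5.38% higher and 8.66% lower. The arrays of both times did not overlap for 14 genes, against 15.5% of probe sets. The median was -0.78 against 0.03 over all probe sets. Of the regulatory genes 8 of 14 were lower, led by Psmd7 (-1.60 ± 0.32, limma adjusted p = 0.00962) and Psmd11 (-1.44 ± 0.29, limma adjusted p = 0.0106). The second probe set of Psmd11 stood at -0.03 ± 0.29 (limma adjusted p = 0.953), so that the probe sets of this gene disagreed. Psmd7 stood at 6.19, 6.14, 6.21, 6.46 and 6.55 on the 2 h arrays, all above the 6 h vehicle arrays given earlier. The core genes Psma1, Psma3 and Psmb3, the assembly gene Psmd5 and the immune genes Psmb8 (-1.08 ± 0.29, limma adjusted p = 0.0298) and Psmb9 (-1.13 ± 0.31, limma adjusted p = 0.0302) were also lower. Leaving out single arrays, Psmb8 passed in 3 and Psmb9 in 5 of 9 fits. With the arrays quantile normalized again 3 genes were called, with 3.53% of probe sets called. The number was 6 without vehicle replicate 4 or 5 of 2 h, 7 without replicate 3 of 2 h or replicate 2 of 6 h, and 9 without replicate 2 of 2 h. For these fits the shares of all probe sets called are not given, so the counts describe stability only. The mean of the 13 cholangiocyte markers was 8.59 ± 0.18 in vehicle bile duct at 2 h and 7.57 ± 0.46 at 6 h, and that of the 17 hepatocyte markers was 4.89 ± 0.91 and 6.40 ± 2.03. Their part in these calls was not tested.

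In vehicle hepatocytes, 21 genes were lower at 6 h and 1, Psme3ip1, was higher, with 22.2% of probe sets called, 9.44% higher and 12.8% lower. No overlap was seen for 19 genes, against 15.3% of probe sets. The number called was 14 after quantile normalization of these arrays, with 19.3% of probe sets called, and 2 in 1 fit of 39 arrays, with 3.21% of probe sets called. The SD of all probe sets on an array lay between 2.32 and 2.37 at 2 h and between 2.24 and 2.29 at 6 h, and its part in the calls was not tested. The median difference of the 43 genes was -0.35. Psmd6, a lid subunit, was lowest at -0.95 ± 0.11 (limma adjusted p = 0.000184), followed by Psmg2, a chaperone of core assembly, at -0.82 ± 0.14. Among the immune genes Psmb8 was lower by -0.62 ± 0.13 (limma adjusted p = 0.00438), and Psme2 (-0.46, limma adjusted p = 0.0171) passed as well. Psme1 (-0.33, limma adjusted p = 0.0486) passed with all arrays but in 0 of 10 fits that left out an array. Psmb9 (-0.17 ± 0.17) and Psmb10 (0.17 ± 0.18) did not pass.

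Between the cell types, in vehicle rats at 2 h, 17 of the 43 genes were lower in bile duct than in hepatocytes and 4 were higher. Of all probe sets 52.2% were called, 28.7% higher and 23.5% lower. The share of proteasome genes called, with higher and lower calls counted as 1 class, was near that 52.2%. The split by direction was not near the background. Lower calls outnumbered higher calls among the proteasome genes, while higher calls were the more frequent among all probe sets. The spread of these arrays was 1.99 to 2.18 in bile duct and 2.32 to 2.37 in hepatocytes. Its part in the split was not tested. No overlap was seen for 17 genes, against 40.3% of probe sets. Assembly genes were lower in 6 of 7 cases, with a median of -1.20. Psmg1, a chaperone of the alpha ring, stood at 4.83 ± 0.40 in bile duct and 6.89 ± 0.28 in hepatocytes (SD, n = 5), lower by -2.06 ± 0.20 (limma adjusted p = 1.32e-06). Psmd9, a chaperone of the base, was lower by -2.10 ± 0.21, and Psmf1, the gene of the inhibitor PI31, by -1.79 ± 0.14. Of the immune genes, Psmb9 (0.86 ± 0.27, limma adjusted p = 0.0153) and Psmb10 (0.84 ± 0.20, limma adjusted p = 0.0034) were higher in bile duct. Psmb8 was lower (-0.57 ± 0.20, limma adjusted p = 0.0295), but passed in only 4 of 10 fits that left out an array. The constitutive relatives Psmb5 (-1.01 ± 0.16) and Psmb7 (-0.66 ± 0.15) were lower. Psme4 was called higher at 0.72 ± 0.16 by its brightest probe set, but its other probe sets stood at -1.48 and -1.68, so that no direction is given for it.

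At 6 h, 25 genes were lower in vehicle bile duct and 1, Psme3ip1, was higher, with 53.7% of probe sets called, 29.3% higher and 24.4% lower. No overlap was seen for 23 genes, against 42% of probe sets. Here 13 of 14 regulatory genes were lower, and Psmb8 (-1.02 ± 0.23) was the only immune gene called. With the arrays quantile normalized again, 7 genes were higher and 7 lower, with 34.2% of probe sets called.

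**Figure D5:**
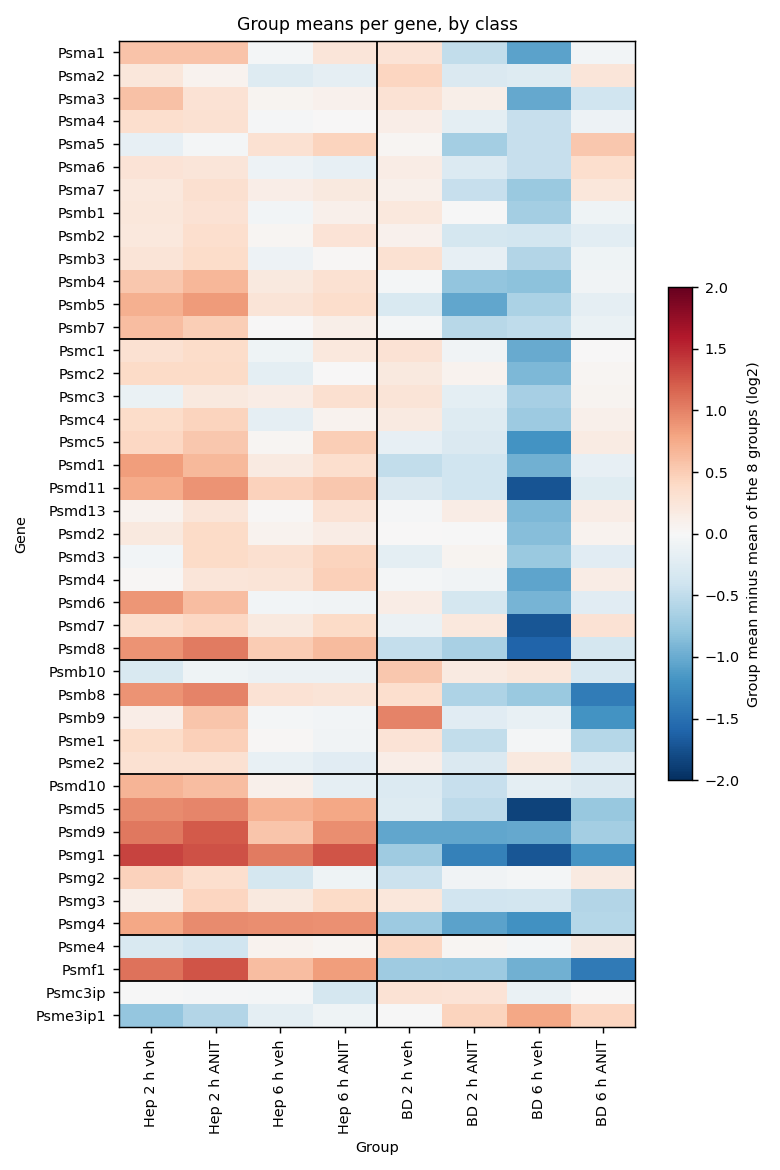
Mean log2 level of each of the 43 genes in the 8 groups (Hep hepatocytes, BD bile duct, veh vehicle), less the mean of that gene over the groups, on a colour scale with genes ordered by class. Vehicle bile duct at 6 h is low for most core and regulatory genes, and bile duct 6 h after ANIT is low for Psmb8 and Psmb9.

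Other genes of the pathway were read from 4 lists. Of 14 genes for delivery, deubiquitination and co-factors, 5 were higher with ANIT in bile duct at 6 h, against 5.17% of all probe sets. They were Zfand2a (2.69 ± 0.47, limma adjusted p = 0.00582) and Zfand5 (1.69 ± 0.32, limma adjusted p = 0.00852), whose zinc finger proteins bind the proteasome, Adrm1 (1.17 ± 0.31), a ubiquitin receptor of the cap, Sqstm1 (1.55 ± 0.41), the autophagy receptor p62, and Ufd1 (1.01 ± 0.28), a partner of the Vcp segregase. At 2 h only the shuttle gene Ubqln2 passed, lower at -1.58 ± 0.33 (limma adjusted p = 0.035) against 0.863% of all probe sets, and Zfand2a was at 2.75 ± 0.71 (limma adjusted p = 0.0698). Of 6 ubiquitin supply genes 1 was higher at 6 h, the conjugating enzyme gene Ube2n (1.30 ± 0.31, limma adjusted p = 0.0222), against the same 5.17%, and none passed at 2 h. These calls at 6 h rest on the same vehicle arrays as those of the proteasome genes. Mean levels with ANIT at 6 h and with vehicle at 2 h were 8.65 and 6.19 for Zfand2a and 8.27 and 7.98 for Zfand5. They were 6.82 and 6.49 for Adrm1, 7.27 and 7.58 for Sqstm1, 7.62 and 7.10 for Ufd1 and 6.57 and 5.80 for Ube2n. No test between those groups is given for these genes.

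None of 7 regulators of proteasome genes passed at either time, with 1.12% of all probe sets called at 2 h and 6.51% at 6 h. At 6 h Nfe2l1 was at 0.84 ± 0.32 (limma adjusted p = 0.122) and Nfe2l2 at 1.18 ± 0.54 (limma adjusted p = 0.197). Of 15 genes of class I antigen presentation and the interferon response, 2 were lower in bile duct at 2 h, against 0.863% of all probe sets. These were the interferon-induced GTPase gene Irgm2 (-2.98 ± 0.27, limma adjusted p = 0.000156) and Irf1 (-1.63 ± 0.29, limma adjusted p = 0.0172), whose product activates interferon target genes. At 6 h Irgm2 was lower (-1.94 ± 0.42, limma adjusted p = 0.0149) against 1.34% of all probe sets, and Irf1, at -0.81 ± 0.46, did not pass. In hepatocytes no gene of the 4 lists passed at either time, with 0% of all probe sets called.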

How the data were processed

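RNA was measured on 39 Affymetrix arrays of laser-captured bile duct or hepatocytes. The deposited log2 levels were made with RMA per the submitters' processing notes (version not given in the sources used here). The authors also deposited log10 ratios and p-values of ANIT over vehicle, which were converted to log2 and adjusted over all probe sets. Arrays have no depth, and their number sets the precision.

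Of 15923 probe sets, 57 controls were left out and 15866 tested. By the platform annotation 12783 had 1 symbol, 312 several, and 2771 were not listed. Each of 12 comparisons was fitted on its own arrays with limma 3.58.1 (R 4.3.3; lmFit and eBayes), with Benjamini-Hochberg adjustment over all probe sets and a threshold of 0.05, after tests on simulated data. Groups came from the sample labels. The p-values measure the spread between arrays labelled as biological replicates. Named in each comparison are up to 10 members past the threshold by smallest p, the 3 of smallest p where fewer passed, and always the immune genes, Psmb5 and Psmb7. Members, gene lists and tests were chosen with earlier results of these data known. Alternatives covered normalization, dim probe sets, variance model, arrays fitted, covariates, replicate block and single arrays left out. Symbols of 43 members matched the RefSeq table. Proteins were not used here.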

Additional observations from a re-analysis of the deposited data

Results flagged for a closer look

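Among 17 named genes, 136 sets of arrays (a gene in a group) were searched for an array far from the others, where chance alone gives about 1 in 20, and 10 were found. The genes share the same arrays, so the sets are not independent of each other. In vehicle bile duct at 2 h, Psmb8 stood at 7.71 on replicate 3 (others 6.69 to 6.95), Psmd6 at 6.58 on replicate 3 (7.23 to 7.46), Psmc5 at 5.98 on replicate 1 (6.72 to 7.01), and Psmd8 at 3.21 (4.64 to 5.21) and Psme2 at 8.20 (8.57 to 8.67) on replicate 2. In bile duct with ANIT, Psmd7 stood at 5.17 on replicate 2 of 2 h (6.74 to 7.28) and Psmd6 at 6.08 on replicate 4 of 6 h (6.95 to 7.02). In vehicle bile duct at 6 h, Psme1 stood at 8.13 on replicate 2 (8.93 to 9.05). In hepatocytes with ANIT, Psme1 stood at 9.54 on replicate 2 of 2 h (9.21 to 9.25) and Psmb10 at 6.44 on replicate 4 of 6 h (5.45 to 5.60).

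With all arrays, the effect of ANIT differed between groups, by a test of the difference itself, for 3 genes. Between bile duct and hepatocytes, Psmb9 differed by -1.63 at 2 h, and Psmd7 by 1.82 and Psmd11 by 1.41 at 6 h. Between 6 and 2 h in bile duct, Psmd11 differed by 1.60. Leaving out single arrays, the call on Psmb9 held in 11 of 20 fits and that on Psmd11 between times in 4 of 19. Psmd7 and Psmd11 passed between cell types at 6 h in 19 of 19 fits. The call on Psmb9 was lost after quantile normalization and with a block by replicate number or array number. The second probe set of Psmd11 gave 0.58 between cell types at 6 h and 0.73 between times, and passed neither test.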

How the results depend on the processing

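The number of proteasome genes called by ANIT in bile duct at 2 h was 0, and it was 1 without dim probe sets, 2 with array weights, 3 in 1 fit of 39 arrays, 1 by the authors' p-values and 1 with hepatocyte markers as a covariate. At 6 h it was 5, and 3 after quantile normalization, 8 with array medians subtracted, 12 without dim probe sets, 12 with a trended robust prior, 21 in 1 fit of 39 arrays, 10 with the 4 bile duct groups fitted together, 1 with array SD as a covariate, 1 at an adjusted p under 0.01 and 1 with the replicate block. For the difference between cell types at 2 h it was 1, and 0 after quantile normalization, 2 with medians subtracted, 2 without dim probe sets, 2 with array weights, 0 at 0.01, and 0 with a replicate block or a block by array number. At 6 h it was 2, and 5 with medians subtracted, 7 without dim probe sets, 5 in 1 fit of 39 arrays and 1 with the dimmest probe set of each gene. For the difference between times in bile duct it was 1, and 0 after quantile normalization, 3 with medians subtracted, 5 without dim probe sets, 6 with a trended robust prior, 26 in 1 fit of 39 arrays, and 0 with array weights, the dimmest probe set, 0.01 or the replicate block. Between cell types in vehicle rats at 6 h it was 26, and 14 after quantile normalization and 16 at 0.01. Between times in vehicle bile duct it was 14, and 3 after quantile normalization, 26 in 1 fit of 39 arrays, 1 at 0.01 and 1 with the replicate block. In vehicle hepatocytes it was 22, and 14, 2 and 11 under the first 3 of these and 7 with a 1.5-fold minimum. Shares of all probe sets called are given in the results for only some of these settings, so the counts alone do not describe proteasome genes in particular. The cause of these shifts was not tested.

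Leaving out 1 array gave 0 to 0 calls by ANIT in bile duct at 2 h and in hepatocytes at both times, and 2 to 8 in bile duct at 6 h. It gave 0 to 2 and 2 to 11 between cell types at 2 and 6 h, 0 to 9 between times in bile duct and 0 to 0 in hepatocytes. In vehicle rats it gave 20 to 21 and 21 to 32 between cell types at 2 and 6 h, and 6 to 17 and 15 to 21 between times in bile duct and hepatocytes. The shares of all probe sets called in fits that left out an array are not given here, so these counts describe stability only. Deviations of same-numbered arrays had correlations from -0.199 to 0.348, and the main fits did not take the numbers to pair samples. Such correlations cannot show whether 2 samples came from the same rat.

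Signs turned for values that had not passed. By ANIT in bile duct at 2 h, Psme1 was 0.0193 with array SD as a covariate and 0.0733 without the 2 ANIT arrays of lowest SD. At 6 h, Psmb7 was -0.0609 after quantile normalization, -0.37 with array SD and -0.10 against vehicle of 2 h, and Psmb5 -0.37 with array SD. In hepatocytes, Psme2 at 2 h was 0.0010 with medians subtracted, 0.0037 with array weights and 0.011 by the authors' table, and Psmb10 at 6 h was -0.0272 after quantile normalization, -0.0040, -0.0135 and -0.0039 under the same 3. After quantile normalization Psmb5 was -0.0113 and Psmb7 -0.15 between cell types at 6 h, and Psmb8 -0.17, Psmb9 -0.29 and Psme1 -0.25 between times in bile duct. There Psme2 was 0.0645 with medians subtracted and 0.0320 with the replicate block, and Psme1 -0.14 with array weights. In vehicle rats after quantile normalization, Psme1 was 0.37 and Psme2 0.26 between cell types at 2 h (Psme1 0.0382 with array weights), Psmb9 0.53, Psme1 0.66 and Psmb7 0.30 at 6 h, and Psmb10 0.11, Psme1 0.0544 and Psmb5 0.13 between times in bile duct.

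Leaving out 1 array also turned signs. By ANIT in hepatocytes, Psmb8 ran from -0.0455 to 0.237 and Psme2 from -0.0535 to 0.044 at 2 h, and Psmb9 from -0.094 to 0.0735, Psmb10 from -0.1645 to 0.083 and Psmb8 from -0.1725 to 0.0675 at 6 h. Between times in bile duct, Psme2 ran from -0.1665 to 0.146, Psmb9 from -0.049 to 0.301 and Psme1 from -0.154 to 0.5135, and in hepatocytes Psmb5 from -0.128 to 0.043 and Psmb8 from -0.271 to 0.0115. In vehicle rats, Psme1 ran from -0.1945 to 0.013 between cell types at 2 h, Psmb9 from -0.174 to 0.0093 and Psme1 from -0.1633 to 0.1433 at 6 h, and Psme2 from -0.0867 to 0.1733 between times in bile duct. Quantile normalization moved the median of all probe sets from 0.16 to 0.04 between cell types at 2 h and from 0.23 to 0.09 at 6 h.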
